A study of Mus musculus with 10 samples.

Results

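10 histone deacetylase genes of the mouse, Hdac1, Hdac2, Hdac3, Hdac4, Hdac5, Hdac6, Hdac7, Hdac8, Hdac9 and Hdac11, were described in pro-B cells that carried wild-type, mutant or no functional Pax5. They are 10 of the 25579 genes with an RNA value, and were listed by name. Hdac11 was chosen by its RNA level, which was already known to differ between these genotypes, so its RNA values stand here as a description without a test and the tests cover the other 9 genes. All 10 passed the filter that a gene reach 1 TPM in at least 1 library, and none fell below 1 TPM in any library. TPM values are scaled for gene length and for library size, so that levels can be compared between genes.

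All mice were C57BL/6. The RNA-seq libraries, 2 per genotype, came from cells sorted ex vivo from the bone marrow. Pax5+/+ pro-B cells carry 2 wild-type copies of the gene and Pax5+/- pro-B cells carry 1. Pax5 R31Q/- pro-B cells carry 1 copy that encodes the Pax5-R31Q protein, with an arginine-to-glutamine change in the paired domain that binds DNA, and 1 null copy. Pax5 fl/fl Vav-Cre cells lack functional Pax5, because Cre made under control of the Vav gene, which is active across blood cells, removes the floxed part of both copies. These last cells are labelled progenitors and the others pro-B cells. Peaks of Pax5 binding came from ChIP-seq with an antibody against the paired domain, 1 library per genotype, in pro-B cells cultured for a short time: Rag2(-/-) cells, whose Pax5 is wild type, and Pax5 R31Q/- cells. The description of the second library reads Rag2(R31Q/-) where its genotype field reads Pax5(R31Q/-), and the genotype field was followed. By these labels the peak lists differ in Rag2 as well as in Pax5, so the 2 cannot be told apart in any difference between the lists. The ages of the mice sorted for RNA-seq are not given in the sources used here, and the labels do not say whether the libraries of a genotype came from separate animals, so p-values measure only the spread between these libraries.

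Histone deacetylases remove acetyl groups from lysines of histones and other proteins, and acetylated histones mark open, transcribed chromatin. Class I enzymes (Hdac1, Hdac2, Hdac3 and Hdac8) are mostly nuclear, and the first 3 work inside large co-repressor complexes. Class IIa members (Hdac4, Hdac5, Hdac7 and Hdac9) have little catalytic activity of their own on acetyl-lysine, bind MEF2 factors, and move out of the nucleus when kinases phosphorylate them. Hdac6, of class IIb, is a cytoplasmic enzyme with tubulin among its substrates, and Hdac11 is the sole member of class IV and an efficient remover of fatty acyl groups. In the B cell lineage Hdac7 is known as a MEF2C-bound repressor of genes of other lineages, and Hdac1 and Hdac2 together are needed by early B cells. Pax5 is the transcription factor that commits cells to this lineage.

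Hdac11 had a lower RNA level in each of the 3 genotypes than in Pax5+/+ pro-B cells, and was lowest in Pax5 R31Q/- cells, not in the cells without functional Pax5. It lies on chromosome 6 from 91156670 to 91174692 on the forward strand (GRCm38, RefSeq), and no other annotated gene overlaps it. The Pax5+/+ libraries had 40.6 and 48.7 TPM of Hdac11, the Pax5+/- libraries 5.38 and 6.74 TPM, the Pax5 R31Q/- libraries 2.53 and 2.56 TPM, and the Pax5 fl/fl Vav-Cre libraries 13.7 and 11.3 TPM. No genotype overlapped another, and the order from high to low was Pax5+/+, Pax5 fl/fl Vav-Cre, Pax5+/- and Pax5 R31Q/-. By the ratio of the mean TPM, Pax5+/+ cells had 17.5 times the Hdac11 level of Pax5 R31Q/- cells, 7.37 times that of Pax5+/- cells and 3.58 times that of Pax5 fl/fl Vav-Cre cells. Pax5 fl/fl Vav-Cre cells in turn had 4.89 times the level of Pax5 R31Q/- cells, and Pax5+/- cells had 2.38 times that level. The values rest on 1410 and 1508 recovered reads in Pax5+/+ cells, 182 and 228 in Pax5+/- cells, 88 and 87 in Pax5 R31Q/- cells, and 342 and 397 in Pax5 fl/fl Vav-Cre cells. On the log2(TPM + 1) scale, where changes of weakly expressed genes come out too small, the differences of Hdac11 from Pax5+/+ were -3.68 in Pax5 R31Q/- cells, -2.69 in Pax5+/- cells and -1.76 in Pax5 fl/fl Vav-Cre cells. With another pseudocount or on recovered reads, the first of these ranged from -4.13 to -2.71. The 3 differences share the same Pax5+/+ libraries.

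**Figure D1:**
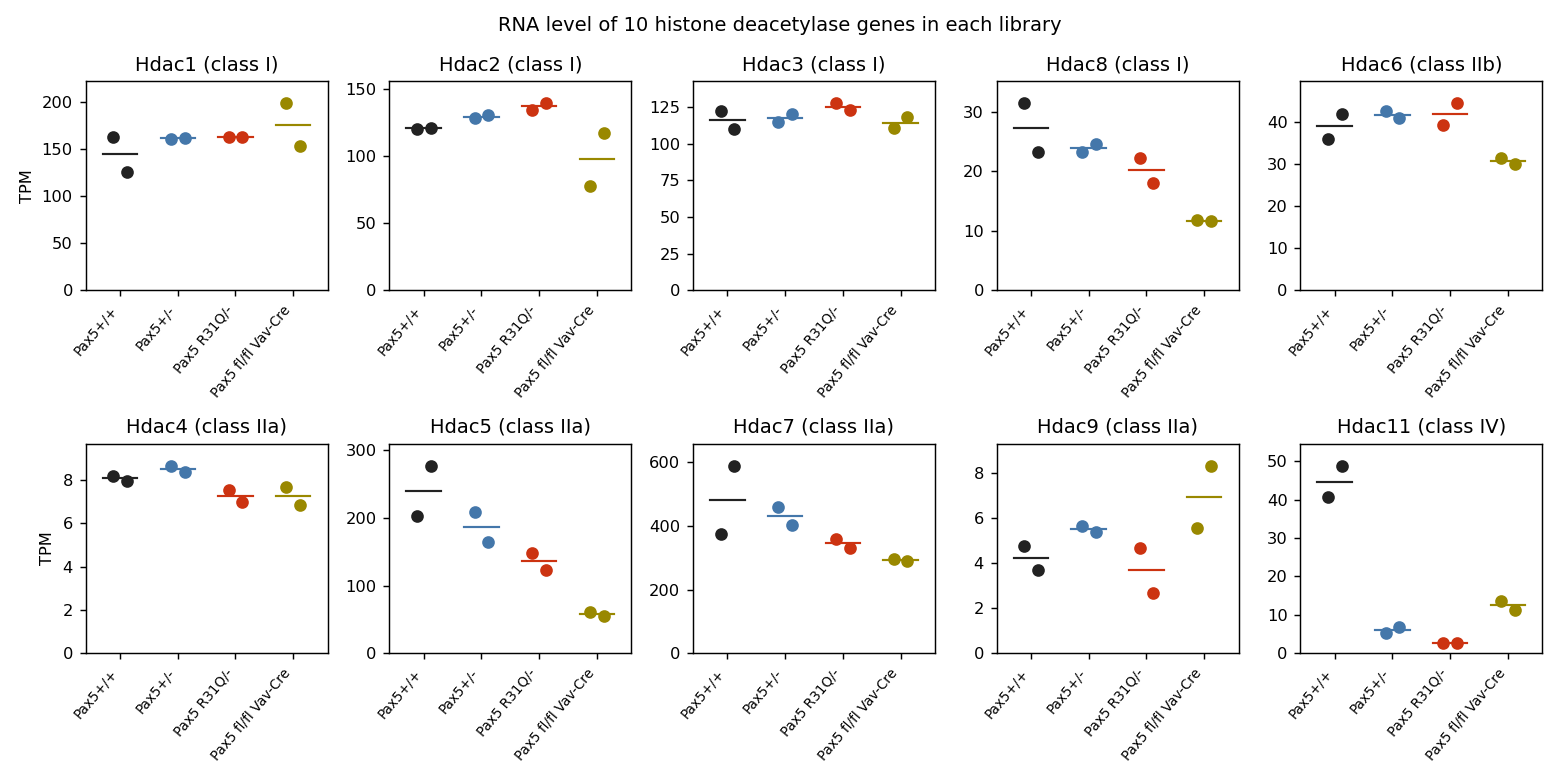
RNA level in TPM on a linear axis from 0 for each of the 10 genes, by genotype. Each point is 1 library and each short line the mean of 2 libraries. Hdac11 lies at 40.6 and 48.7 TPM in Pax5+/+ and at 2.53 and 2.56 TPM in Pax5 R31Q/-, and Hdac5 lies lowest, at 61.1 and 54.9 TPM, in Pax5 fl/fl Vav-Cre, while Hdac3 lies between 110 and 127 TPM in all 8 libraries.

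The Pax5 peaks at Hdac11 differed between the lists in number and in width. The wild-type list held 2 peaks in the gene or within 10 kb of it, and the R31Q/- list held 1. One wild-type peak, of 280 bp, lay 6978 bp upstream of the nearest start site and met no R31Q/- peak. The other, of 546 bp, covered the RefSeq start site of NM_144919 at position 91156815, from 250 bp before it to 295 bp after it. An R31Q/- peak of 328 bp met it and ended 71 bp after the start site. The width of the R31Q/- peak was thus 0.601 times that of the wild-type peak, and 1.14% of the 14850 pairs in which 1 peak of each list met had a ratio as low. The files give no peak heights and each genotype has 1 ChIP-seq library, so the difference in width has no test.

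**Figure D2:**
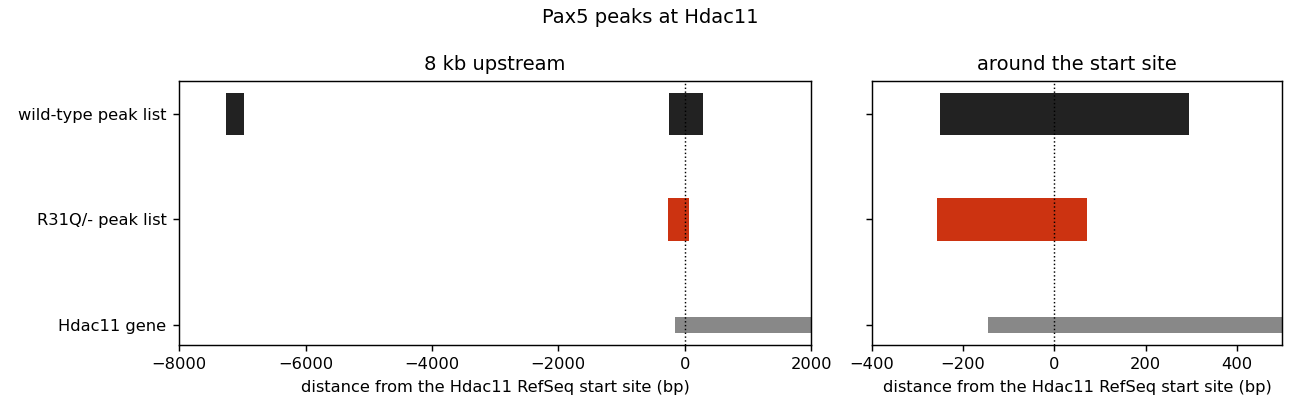
Pax5 peaks at Hdac11, drawn to scale as distance in bp from the RefSeq start site (dotted line), upstream to the left. Bars in the upper row are wild-type peaks, bars in the middle row R31Q/- peaks, and the grey bar is the gene. The R31Q/- list lacks the upstream peak, and its peak at the start site ends 71 bp after that site where the wild-type peak ends 295 bp after it. The gene range begins 145 bp before that site, at the start of predicted transcripts.

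Of the 10 genes, Hdac11 had the largest RNA difference between Pax5 R31Q/- and Pax5+/+ cells. The stretches where the lists differ at Hdac11, and the promoter stretch that both lists hold, are therefore shown first. All are read from the GRCm38 genome on the strand of the gene. Capitals mark 7 letters that match GCGTGAC, the core of the site bound by the paired domain, or GTCACGC on the other strand, with at most 1 mismatch. The upstream peak in the wild-type list alone (chr6:91149553-91149832), the promoter stretch in both lists (chr6:91156565-91156814) and the intron stretch covered by the wild-type peak alone (chr6:91156887-91157110) read:
Hdac11 upstream peak: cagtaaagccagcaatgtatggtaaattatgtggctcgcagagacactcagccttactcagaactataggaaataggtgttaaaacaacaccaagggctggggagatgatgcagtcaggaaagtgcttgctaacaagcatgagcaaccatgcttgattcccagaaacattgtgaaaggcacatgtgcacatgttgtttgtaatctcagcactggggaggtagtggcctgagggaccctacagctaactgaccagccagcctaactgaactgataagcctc
Hdac11 promoter stretch: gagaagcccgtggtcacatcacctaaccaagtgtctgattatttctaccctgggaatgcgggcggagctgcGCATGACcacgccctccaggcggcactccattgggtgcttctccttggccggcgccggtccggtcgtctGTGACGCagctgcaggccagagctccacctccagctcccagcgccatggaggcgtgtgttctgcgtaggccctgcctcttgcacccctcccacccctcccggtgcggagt
Hdac11 intron stretch: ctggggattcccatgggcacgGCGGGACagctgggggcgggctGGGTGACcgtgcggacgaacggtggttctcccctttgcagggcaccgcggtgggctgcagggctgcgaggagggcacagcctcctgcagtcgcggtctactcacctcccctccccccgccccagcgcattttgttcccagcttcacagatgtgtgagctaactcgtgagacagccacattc
None of the 3 holds the exact letters. With 1 mismatch allowed, the promoter stretch held 2 matches, the intron stretch 2 and the upstream peak 0. For comparison, of 250-bp windows centred on the wild-type peaks, 3.54% held the exact letters, 6.72% at peaks in both lists and 1.64% at the rest. With at most 1 mismatch 65.5% held them, 57.0% at peaks in both lists and 70.6% at the rest. Of 250-bp windows just upstream of the tested genes, 2.87% held the exact letters and 46.4% held them with at most 1 mismatch, so such matches are common. GC content was 65.2% in the promoter stretch, 66.5% in the intron stretch and 47.1% in the upstream peak.

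Of the genes next to Hdac11, only Nup210 could be tested, and it moved less than Hdac11. Nup210, which encodes a nuclear pore protein and ends 38348 bp to the left of Hdac11, had 366 ± 10.01 TPM (SD, n = 2) in Pax5+/+, 344 ± 22.4 in Pax5+/-, 246 ± 18.7 in Pax5 R31Q/- and 292 ± 12.3 in Pax5 fl/fl Vav-Cre cells. It was lower in Pax5 R31Q/- than in Pax5+/+ cells by limma (log2 difference -0.57, adjusted p = 0.0305). Fbln2, which encodes an extracellular matrix protein and starts 37768 bp to the right, had a mean of at most 0.0316 TPM in every genotype and was not tested. By the root mean square difference of the centred log2(TPM + 1) values over the 8 libraries, the 5 genes most like Hdac11 of 10788 compared were Col5a3, Map7, Slc52a3, Pinlyp and Zfp94, at 0.77 to 0.87. Col5a3, a collagen gene and the nearest, had 10.4 TPM in Pax5+/+, 0.103 in Pax5+/-, 0.0415 ± 0.0077 in Pax5 R31Q/- and 0.0116 ± 0.0164 in Pax5 fl/fl Vav-Cre cells. The last 2 lie too near 0 to say which was lower. Map7, a microtubule-associated protein, had 84.7 TPM in Pax5+/+, 39.9 in Pax5+/-, 16.4 in Pax5 R31Q/- and 21.8 in Pax5 fl/fl Vav-Cre cells. It was picked for its likeness to Hdac11, so its lowest level in Pax5 R31Q/- cells is no separate result. These distances are large beside those of the genes nearest to Hdac5 below.

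RNA levels across the tested genes set the scale for the other 9 members. Recovered depth was 21625407 reads in a Pax5 fl/fl Vav-Cre library and 29916566 to 34488454 reads in the others. Pax5 itself had 431 ± 18.4 TPM in Pax5+/+, 279 ± 10.3 in Pax5+/-, 299.6 ± 9.29 in Pax5 R31Q/- and 1325 ± 118 in Pax5 fl/fl Vav-Cre cells, and a value per gene does not show which exons were read, so it does not check the last label. The summed level of 10 pro-B cell markers was 15011 to 17541 TPM in Pax5+/+, 14108 to 14885 in Pax5+/- and Pax5 R31Q/-, and 7749 to 8480.4 in Pax5 fl/fl Vav-Cre libraries. Against this, 8 myeloid markers summed to 399 to 616 TPM in Pax5+/+, 665 to 1534 in Pax5+/-, 948 to 997 in Pax5 R31Q/- and 318 to 2074 in Pax5 fl/fl Vav-Cre libraries, and 3 markers of plasmacytoid dendritic cells to 103.0 to 131 TPM in Pax5+/+ and 383 to 673 in Pax5 fl/fl Vav-Cre libraries, with none of these 11 genes at 0 in both libraries of a genotype. The 3 pre-B cell markers summed to 148 to 218 TPM in Pax5+/+, 152 to 179 in Pax5+/-, 93.0 to 97.7 in Pax5 R31Q/- and 175 to 311 in Pax5 fl/fl Vav-Cre libraries, so they were lower in both Pax5 R31Q/- libraries. T and NK cell markers, 6 in all, and 5 erythroid and megakaryocyte markers summed to at most 19.9 and 28.7 TPM in any library, with 11.5 to 12.7 and 5.15 to 17.7 in Pax5 fl/fl Vav-Cre against 18.0 to 19.9 and 20.8 to 28.7 in Pax5+/+ libraries, and Hbb-bs at 0 throughout. A sum follows its most abundant genes, and single pro-B cell markers moved in both directions. From Pax5+/+ to Pax5 R31Q/- cells, mean Cd79a fell from 3876 to 2348 TPM and Ebf1 from 478 to 398 TPM. Kit rose from 58.7 to 90.4 TPM and Il7r from 205 to 400 TPM, while Rag2 had 130 and 132 TPM. The part of the markers in the differences below was not tested, and in bulk samples fewer cells of a type and less RNA per cell cannot be told apart.

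Differences were tested with limma across 13436 genes, with Benjamini-Hochberg adjustment over all of them. An exact permutation test of 2 libraries against 2 cannot go below a two-sided p of 0.333. Of the 9 members tested, 0 had an adjusted p under 0.05 between Pax5 R31Q/- and Pax5+/+ cells, where 2.55% of all genes tested were called lower and 1.62% higher. Those 560 calls over all genes became 297 in a fit of the 2 genotypes alone, and changed when 1 library at a time was left out. They became 615 without the first and 182 without the second Pax5+/+ library, 319 and 328 without the first and the second Pax5+/- library, 99 and 94 for Pax5 R31Q/- and 864 and 893 for Pax5 fl/fl Vav-Cre. At an unadjusted p under 0.05 there was 1 of 9, beside 18.8% of all genes. limma-voom on recovered reads called 1 lower, Hdac5, beside 3.77% of its genes lower and 2.42% higher. Between Pax5+/- and Pax5+/+ cells 0 of 9 were called by limma and 0 by limma-voom, 0 of 9 had an unadjusted p under 0.05, beside 6.06% of all genes, and 0.0223% of all genes were called lower and 0.0% higher by limma, and 0.187% and 0.0524% by limma-voom. Between Pax5 fl/fl Vav-Cre and Pax5+/+ cells 3 of 9 were called lower and 0 higher, where the whole table gave 19.7% lower and 16.2% higher. limma-voom called 3 lower and 1 higher, Hdac9, beside 18.7% and 20.6%, and median-ratio scaling and quantile normalization called 2 lower, Hdac5 and Hdac8. Over all genes the 2647 lower and 2182 higher calls became 2498 and 2627 with median-ratio scaling, so which direction had more calls depended on the scaling. Pax5 fl/fl Vav-Cre against Pax5 R31Q/- cells also gave 3 of 9 lower and 0 higher, beside 19.9% and 14.7%. With median-ratio scaling, quantile normalization or limma-voom the count was 2 lower, Hdac5 and Hdac8, and 1 higher, Hdac9, beside 18.9% and 19.8% by limma-voom, and the 2677 lower and 1978 higher calls over all genes became 2482 and 2619 with median-ratio scaling. Pax5 R31Q/- against Pax5+/- cells gave 0 of 9 by limma and by limma-voom, with 0.35% of genes lower and 0.268% higher by limma and 0.815% and 0.591% by limma-voom. At an unadjusted p under 0.05 there was 1 of 9, beside 8.79% of all genes. The median log2 difference of the 9 members was -0.14 for Pax5 R31Q/- and -0.33 for Pax5 fl/fl Vav-Cre against Pax5+/+, where the median of all genes was 0.04 and -0.11.

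**Figure D3:**
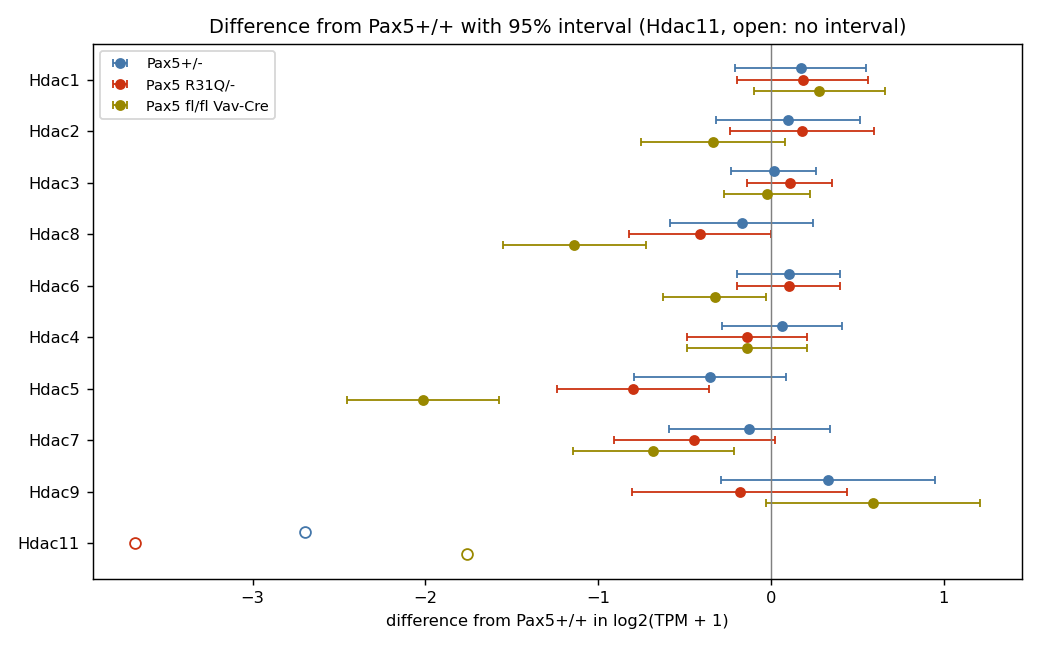
Difference from Pax5+/+ in log2(TPM + 1) for Pax5+/-, Pax5 R31Q/- and Pax5 fl/fl Vav-Cre cells. Points are limma estimates and bars their 95% intervals for 9 genes, and Hdac11 is drawn open without an interval. In Pax5 fl/fl Vav-Cre cells the intervals of Hdac5, Hdac7, Hdac8 and Hdac6 lie below 0, and Hdac11 lies furthest to the left in Pax5 R31Q/- cells.

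Among the class IIa genes, Hdac5 fell in Pax5 fl/fl Vav-Cre cells, and its means stepped down across the genotypes. This enzyme shuttles between nucleus and cytoplasm in response to calcium and protein kinase D signals. It lies on chromosome 11 from 102195747 to 102230172 on the reverse strand, with Mir8101 inside it on the same strand. Its libraries had 203 and 276 TPM in Pax5+/+, 209 and 164 in Pax5+/-, 148 and 124 in Pax5 R31Q/- and 61.1 and 54.9 in Pax5 fl/fl Vav-Cre cells. The Pax5 fl/fl Vav-Cre libraries lay below all others, the Pax5 R31Q/- libraries came next, and Pax5+/- overlapped Pax5+/+. Against Pax5+/+ the log2 difference of Hdac5 in Pax5 fl/fl Vav-Cre cells was -2.01 (SE 0.19, adjusted p = 2.08e-04), and this call held in 17 of 17 alternative settings. It was the only call among the members that also exceeded the 3-fold threshold used in the study's methods, with a mean 4.13 times as high in Pax5+/+. Against Pax5 R31Q/- cells it was -1.21 (adjusted p = 0.00278), also held in 17 of 17. Between Pax5 R31Q/- and Pax5+/+ cells the difference was -0.80 with a 95% interval of -1.24 to -0.36 (adjusted p = 0.0635). That comparison did not pass in 15 of 17 alternatives. It passed with limma-voom on recovered reads (-0.82, adjusted p = 0.0360) and without the first Pax5+/+ library (-1.02, adjusted p = 0.0484), but was -0.58 (adjusted p = 0.312) without the second Pax5+/+ library and -0.67 (adjusted p = 0.393) without the second Pax5 R31Q/- library. For Pax5+/- against Pax5+/+ the interval ran from -0.79 to 0.09.

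The 5 genes with profiles nearest to that of Hdac5 were Mtss1, Spred2, Trp53inp2, Bicra and Fam219a, at a root mean square difference of 0.10 to 0.14 on the log2 scale over the 8 libraries. Mtss1, a membrane-binding regulator of actin, had 182 ± 25.1 TPM in Pax5+/+, 140 ± 18.7 in Pax5+/-, 90.6 ± 8.47 in Pax5 R31Q/- and 39.5 ± 0.0413 in Pax5 fl/fl Vav-Cre cells. Spred2, an inhibitor of Ras signalling to MAP kinase, went from 62.6 ± 13.7 TPM in Pax5+/+ to 16.6 ± 1.87 in Pax5 fl/fl Vav-Cre cells. Both were picked for their likeness to Hdac5, so sharing its order of genotypes is no separate result. To the left of Hdac5, 1666 bp away, G6pc3, a glucose-6-phosphatase subunit, rose in Pax5 fl/fl Vav-Cre cells (log2 difference 0.94, adjusted p = 0.00578 by limma), from 44.8 ± 12.1 to 85.9 ± 8.63 TPM. On the right, Asb16 stayed at or below a mean of 0.484 TPM and was not tested.

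All 3 wild-type peaks in or near Hdac5 met an R31Q/- peak, and all 3 were wider in the R31Q/- list, by ratios of 1.157 to 1.716. The peak downstream of Hdac5 overlaps the start of the G6pc3 gene range. The one at the start site is shown in its promoter part (chr11:102230173-102230455), as a peak kept at a gene whose RNA fell in the absence of Pax5:
Hdac5 promoter stretch: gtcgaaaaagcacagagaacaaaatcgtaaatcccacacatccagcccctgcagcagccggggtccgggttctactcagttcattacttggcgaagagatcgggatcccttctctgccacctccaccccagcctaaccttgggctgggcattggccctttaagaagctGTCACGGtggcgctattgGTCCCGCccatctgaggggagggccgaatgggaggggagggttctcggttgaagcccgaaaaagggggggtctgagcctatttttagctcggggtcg
It held 0 exact matches and 2 with 1 mismatch. Hdac5 and Hdac11 both kept a peak at the start site, 583 bp wide in the R31Q/- list at Hdac5 and 328 bp at Hdac11. Their mean RNA in Pax5+/+ cells was 1.76 and 17.5 times that in Pax5 R31Q/- cells. A link between these peaks and the RNA levels was not tested.

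Hdac7 was the most abundant of the 10 genes in every library, and it lies on chromosome 15 from 97792661 to 97844502 on the reverse strand. Its libraries had 374 and 588 TPM in Pax5+/+, 459 and 403 in Pax5+/-, 360 and 329 in Pax5 R31Q/-, and 295 and 288 in Pax5 fl/fl Vav-Cre cells. The Pax5+/+ libraries stood far apart, and the Pax5+/- libraries lay between them. Hdac7 fell in Pax5 fl/fl Vav-Cre against Pax5+/+ cells, with a log2 difference of -0.68 (adjusted p = 0.0321), but 11 of 17 alternatives lost this call, with adjusted p from 0.00384 to 0.128 over all 17. Without the second Pax5+/+ library the difference was -0.36 (adjusted p = 0.0877), and the adjusted p was also above 0.05 without any 1 of the Pax5+/-, Pax5 R31Q/- or Pax5 fl/fl Vav-Cre libraries (0.0539 to 0.101), though the difference stayed between -0.70 and -0.66 in these 6 fits. For Pax5 R31Q/- against Pax5+/+ the interval was -0.91 to 0.02, and 1 of 17 alternatives passed. Without the first Pax5+/+ library this difference was -0.77 (adjusted p = 0.0373) and without the second -0.12 (adjusted p = 0.836), so it rests on which of these libraries is used. Slc48a1 and Gm33636 overlap Hdac7 on the other strand, and the strand setting of the counting is not stated, so some reads may be theirs. Rapgef3, a cAMP-activated exchange factor 24242 bp to the left of Hdac7, rose from 5.89 ± 0.966 TPM in Pax5+/+ to 23.5 ± 9.16 in Pax5 R31Q/- (adjusted p = 0.0210 by limma) and 55.7 ± 16.5 in Pax5 fl/fl Vav-Cre cells (adjusted p = 3.04e-04). Vdr, the vitamin D receptor gene 9925 bp to the right, stayed at or below a mean of 0.736 TPM and was not tested.

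Hdac7 also had the one start-site peak of the 10 genes that the R31Q/- list lacked. Of 6 wild-type peaks in or near the gene, 5 met an R31Q/- peak, each wider there. The sixth, 415 bp wide, lay with its midpoint 68 bp inside the start site of the curated RefSeq transcripts such as NM_019572. Of the kept peaks, 4 lay inside the gene, nearest to the start sites of predicted transcripts XM_006521208 and XM_006521209, and 3 of these lay within 1 kb of one. The 70 bases just upstream of the curated start site (chr15:97831768-97831837), which the wild-type peak covered alone, are shown for that reason:
Hdac7 promoter stretch: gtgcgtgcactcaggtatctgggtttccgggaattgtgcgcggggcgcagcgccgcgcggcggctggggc
This stretch is part of the peak and stops where an exon of a predicted Hdac7 transcript begins. It held 0 matches, exact or with 1 mismatch, and the whole peak of 415 bp held 0 exact matches and 1 with 1 mismatch.

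Hdac4 and Hdac9 were the least abundant members in Pax5+/+ cells, and neither passed the test in any of the 5 comparisons. Hdac4, best known from bone and muscle, had 8.21 and 7.97 TPM in Pax5+/+, 8.64 and 8.38 in Pax5+/-, 7.56 and 6.97 in Pax5 R31Q/- and 7.67 and 6.84 in Pax5 fl/fl Vav-Cre cells. Its 95% interval for Pax5 fl/fl Vav-Cre against Pax5+/+ was -0.49 to 0.21. Hdac9, a transcriptional repressor with many splice forms, had 4.73 and 3.68 TPM in Pax5+/+, 5.65 and 5.37 in Pax5+/-, 4.68 and 2.67 in Pax5 R31Q/-, and 5.55 and 8.28 in Pax5 fl/fl Vav-Cre cells. It was the only one of the 4 class IIa genes with a higher mean in Pax5 fl/fl Vav-Cre than in Pax5+/+ cells. The difference of Hdac9 between Pax5 fl/fl Vav-Cre and Pax5 R31Q/- cells was 0.77 (interval 0.15 to 1.39, adjusted p = 0.0573), and it passed with median-ratio scaling (0.88, adjusted p = 0.0213), quantile normalization (0.85, adjusted p = 0.0255), limma-voom (1.06, adjusted p = 0.0112) and without the first Pax5 fl/fl Vav-Cre library (1.02, adjusted p = 0.0490), 4 of 17 alternatives. It was 0.46 (adjusted p = 0.304) without the second Pax5 R31Q/- library and 0.52 (adjusted p = 0.181) without the second Pax5 fl/fl Vav-Cre library. Between Pax5 fl/fl Vav-Cre and Pax5+/+ cells the Hdac9 difference was 0.59 (adjusted p = 0.122 by limma). It passed with limma-voom alone (0.81, adjusted p = 0.0309), and ranged from 0.34 to 0.84 over the alternatives. Both genes overlap other annotated genes, Hdac4 LOC108167659 on the same strand and Hdac9 1 gene on the same strand and 4 on the other, so some reads of either may belong to those genes.

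Of the 4 class I genes, only Hdac8 was called in any comparison. Hdac8, which deacetylates the cohesin subunit Smc3, lies on the X chromosome from 102284638 to 102505381 on the reverse strand. Its libraries had 31.4 and 23.3 TPM in Pax5+/+, 23.3 and 24.6 in Pax5+/-, 22.3 and 18.1 in Pax5 R31Q/- and 11.9 and 11.6 in Pax5 fl/fl Vav-Cre cells. The Pax5 fl/fl Vav-Cre libraries lay below all others, and Pax5+/- overlapped Pax5+/+. Hdac8 fell in Pax5 fl/fl Vav-Cre cells with a log2 difference of -1.14 from Pax5+/+ (SE 0.18, adjusted p = 0.00223), in 17 of 17 alternatives, and of -0.73 from Pax5 R31Q/- (adjusted p = 0.0177), in 14 of 17. The second call was lost without the first Pax5 R31Q/- library (-0.59, adjusted p = 0.133), without the first Pax5 fl/fl Vav-Cre library (-0.74, adjusted p = 0.0528) and with only the 2 genotypes in the fit (adjusted p = 0.0552). Pax5 R31Q/- against Pax5+/+ gave -0.41 with an interval of -0.82 to 0.00 (adjusted p = 0.268), and ranged from -0.62 to -0.20 over the alternatives. Gm32262 overlaps it on the other strand, so some reads may belong to that gene. Phka1, a subunit of phosphorylase kinase 8594 bp to the right, fell too, from 6.46 ± 0.304 TPM in Pax5+/+ to 1.37 ± 0.580 in Pax5 fl/fl Vav-Cre cells (log2 difference -1.67, adjusted p = 0.00130 by limma). Gm14858, on the left, had a mean of at most 0.0204 TPM.

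Hdac8 was the only one of the 10 genes without a wild-type peak whose midpoint lay within 1 kb of an annotated start site. Its one shared peak lay in an intron, 8036 bp inside the gene, and was 528 bp wide in the wild-type list and 280 bp in the R31Q/- list. That ratio of 0.53 was the lowest among the members, and 0.55% of all pairs had a ratio as low. The R31Q/- peak (chrX:102496990-102497269) is shown because it narrowed more than that of Hdac11:
Hdac8 intron peak: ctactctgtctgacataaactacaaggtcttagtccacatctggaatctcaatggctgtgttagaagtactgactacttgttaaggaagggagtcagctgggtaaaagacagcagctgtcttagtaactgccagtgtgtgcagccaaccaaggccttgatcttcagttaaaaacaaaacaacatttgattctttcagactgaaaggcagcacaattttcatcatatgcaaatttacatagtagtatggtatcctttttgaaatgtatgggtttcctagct
It held 0 matches to GCGTGAC with up to 1 mismatch, and its GC content was 39.6%. The other 2 wild-type peaks of Hdac8 had no R31Q/- partner and lay wholly in repeats.

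Hdac1, Hdac2 and Hdac3, the catalytic subunits of the Sin3, NuRD, CoREST and NCoR complexes, did not pass the test in any comparison. Hdac1 had 163 and 126 TPM in Pax5+/+, 161 and 162 in Pax5+/-, 163 and 163 in Pax5 R31Q/- and 198 and 153 in Pax5 fl/fl Vav-Cre cells, with a 95% interval of -0.10 to 0.66 for Pax5 fl/fl Vav-Cre against Pax5+/+. Hdac2 had 121 and 121 TPM in Pax5+/+, 128 and 131 in Pax5+/-, 135 and 140 in Pax5 R31Q/- and 77.8 and 118 in Pax5 fl/fl Vav-Cre cells. The low Hdac2 value belonged to the shallowest library. Without the other Pax5 fl/fl Vav-Cre library, where this one stood alone and was assumed to vary like the other groups, Hdac2 passed against Pax5+/+ (-0.63, adjusted p = 0.00320) and Pax5 R31Q/- (-0.81, adjusted p = 0.00159), against -0.33 (adjusted p = 0.181) and -0.52 (adjusted p = 0.0585) with both. Hdac3 had 122 and 110 TPM in Pax5+/+, 115 and 120 in Pax5+/-, 127 and 123 in Pax5 R31Q/- and 110 and 118 in Pax5 fl/fl Vav-Cre cells. Its intervals against Pax5+/+ were the narrowest of the 9, at -0.27 to 0.22 for Pax5 fl/fl Vav-Cre and -0.14 to 0.35 for Pax5 R31Q/- cells. All 3 genes kept their start-site peak in the R31Q/- list.

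Hdac6, the class IIb tubulin deacetylase, had 36.1 and 41.9 TPM in Pax5+/+, 42.7 and 41.0 in Pax5+/-, 39.4 and 44.5 in Pax5 R31Q/- and 31.6 and 30.1 in Pax5 fl/fl Vav-Cre cells. The Pax5 fl/fl Vav-Cre libraries lay below all others. Its difference from Pax5 R31Q/- was -0.43 (adjusted p = 0.0363), a call lost in 10 of 17 alternatives, with adjusted p from 0.0312 to 0.203. Among these were median-ratio scaling (-0.30, adjusted p = 0.139), which moved the median of all genes in that comparison from -0.13 to -0.01, and leaving out either library of Pax5+/-, Pax5 R31Q/- or Pax5 fl/fl Vav-Cre (0.0572 to 0.203). Against Pax5+/+ the interval was -0.63 to -0.03 (adjusted p = 0.0838). Its 1 wild-type peak, at the start site, was kept. Beside Hdac6, Gata1 had 3.47 ± 0.0587 TPM in Pax5+/+ and 1.86 ± 1.37 in Pax5 fl/fl Vav-Cre cells (adjusted p = 0.111 by limma), and Eras was listed at 0 in every library.

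The order of levels in Pax5+/+ cells was Hdac7, Hdac5, Hdac1, Hdac2, Hdac3, Hdac11, Hdac6, Hdac8, Hdac4 and Hdac9. The ranges of neighbours in that order overlapped for Hdac2 and Hdac3 and for Hdac11 and Hdac6. In Pax5 R31Q/- cells Hdac11 was the tenth and Hdac5 the fourth, its range overlapping those of Hdac2 and Hdac3. In Pax5 fl/fl Vav-Cre cells Hdac11 was the seventh and overlapped Hdac8. The summed level of the 10 genes was 1104 and 1347 TPM in Pax5+/+, 1157 and 1066 in Pax5+/-, 1010 and 954 in Pax5 R31Q/- and 813 and 800.4 in Pax5 fl/fl Vav-Cre libraries. Class IIa genes made up 53.4% and 65.0% of that sum in Pax5+/+ and 45.5% and 44.8% in Pax5 fl/fl Vav-Cre libraries, and class I genes 39.6% and 28.3% against 49.0% and 50.1%. Without Hdac5 and Hdac7 the sum lay between 457 and 527 TPM in all 8 libraries. Hdac11 gave 3.68% and 3.62% of the sum in Pax5+/+ but 0.251% and 0.269% in Pax5 R31Q/- libraries.

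**Figure D4:**
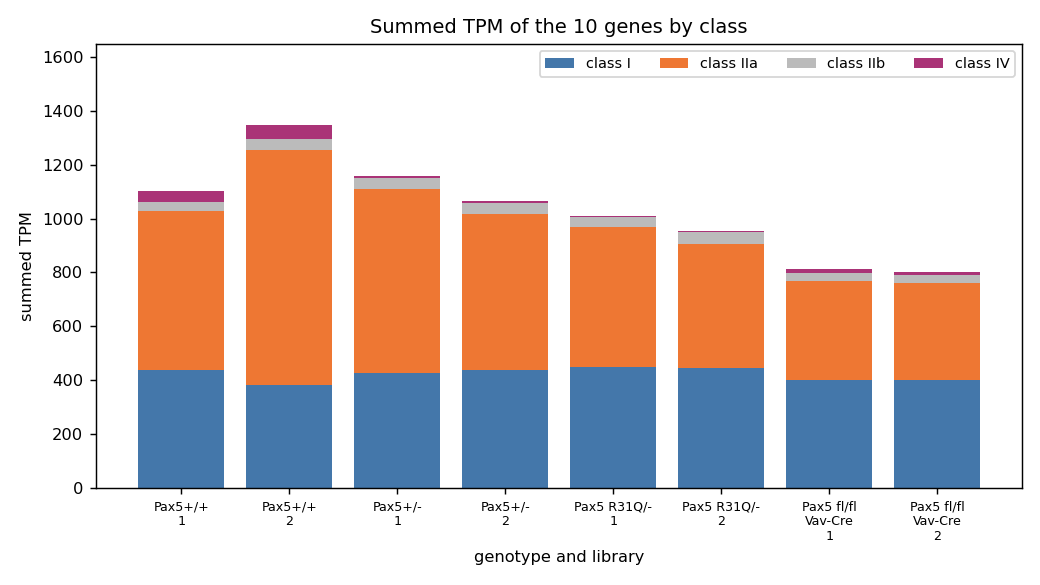
Summed TPM of the 10 genes in each of the 8 libraries on a linear axis from 0, split by class. The class I part stays between 381 and 447 TPM, while the class IIa part ranges from 875 TPM in a Pax5+/+ library to 358 TPM in a Pax5 fl/fl Vav-Cre library.

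Across the 10 genes and 10 kb on each side, the wild-type list held 37 peaks, of which 22 met a peak of the R31Q/- list by at least 1 bp. That is 59.5% (95% Wilson interval 43.5% to 73.7%, counting error only), beside 37.5% of all 41983 wild-type peaks. The interval takes peaks of the same gene as independent, and the 2 sets of peaks differ in repeat content. It is thus no test of the members against all peaks. The R31Q/- list held 22 peaks there, and 1, at Hdac9, had no wild-type partner. Of the 10 genes 9 had a wild-type peak at a start site, beside 67.4% of the tested genes with an annotated start site, and 0 of the 9 lost all such peaks, beside 3.86% of genes that had one. Within 0.2 kb of a start site, 8 of the 10 had a peak, beside 56.2% of genes, and 1 of the 8, Hdac7, lost it, beside 3.2% of genes that had one. The 15 peaks in the wild-type list alone lay at Hdac9 (7 of its 8), Hdac2, Hdac4 and Hdac8 (2 each) and Hdac7 and Hdac11 (1 each). Of these 15, 7 were at least 50% repeat-masked, as were 71.7% of all such peaks, and 0 of the 22 shared ones were, beside 2.6% of all shared peaks. A peak within 10 kb of a member can lie nearer to another gene. None of the 37 held GCGTGAC on either strand, beside 4.83% of all wild-type peaks. That 0 depends on peak borders, as the wider R31Q/- peak at the start site of Hdac1 held 1 exact match. With at most 1 mismatch 16 of the 37 held it, beside 73.9% of all wild-type peaks. In 250-bp windows that share was 57.0% at shared peaks and 70.6% at peaks in the wild-type list alone. A single repeated stretch of 24 letters lay in 52.7% of the latter and 0.223% of all shared peaks, and in 4 of the 15 and 0 of the 22 here.

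Widths set Hdac11 and Hdac8 apart from the other members. Of 20 pairs in which 1 peak of each list met at these genes, 17 were wider in the R31Q/- list, and 3, at Hdac11, Hdac8 and Hdac9, were narrower. Over all 14850 pairs 19.6% were narrower in the R31Q/- list. The median ratio of the R31Q/- to the wild-type width was 1.384 for the members and 1.206 for all pairs. The Hdac9 peak differed little, at 352 and 318 bp. In mean RNA, Hdac8 had 0.738 times its Pax5+/+ level in Pax5 R31Q/- cells, Hdac9 0.873 times and Hdac11 0.0570 times. Any link between width and RNA was not tested.

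**Figure D5:**
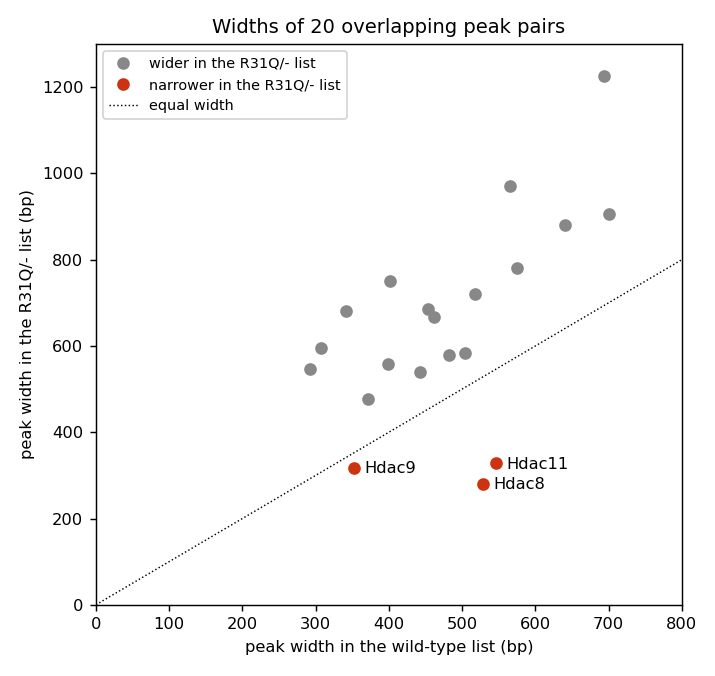
Width in bp of 20 peak pairs at the 10 genes, in the wild-type list (x axis) and in the R31Q/- list (y axis), with a dotted line of equal width. Each point is 1 pair. The 3 pairs below the line are at Hdac11 (546 and 328 bp), Hdac8 (528 and 280 bp) and Hdac9 (352 and 318 bp).

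Other genes of protein acetylation were read from 4 lists. Their counts in Pax5 fl/fl Vav-Cre cells stand beside calls for 19.7% of all genes lower and 16.2% higher against Pax5+/+, and no list was tested against the others. Of 8 other lysine deacetylases, 2 fell and 1 rose in Pax5 fl/fl Vav-Cre against Pax5+/+ cells. Sirt3, the mitochondrial deacetylase, rose from 43.5 ± 3.72 to 130 ± 11.7 TPM (log2 difference 1.56, adjusted p = 8.54e-05 by limma). Hdac10, the class IIb polyamine deacetylase, fell from 55.6 ± 7.58 to 35.1 ± 9.37 TPM (adjusted p = 0.0291), and Sirt1, a nuclear deacetylase, from 25.0 ± 3.49 to 14.1 ± 6.17 TPM (adjusted p = 0.0401). In Pax5 R31Q/- against Pax5+/+ cells, where 2.55% of all genes were lower and 1.62% higher, 0 of the 8 were called. The 30 subunits of class I complexes had 6 lower and 1 higher in Pax5 fl/fl Vav-Cre cells, the former share near that of all genes, with a median log2 difference of -0.19 beside -0.11 for all genes. Rcor2, a CoREST scaffold that binds Hdac1 and Hdac2, was the only one of the 30 called in Pax5 R31Q/- cells, from 57.3 ± 11.3 to 34.7 ± 1.14 TPM (log2 difference -0.70, adjusted p = 0.0499), and fell to 22.4 ± 0.985 TPM in Pax5 fl/fl Vav-Cre cells (-1.30, adjusted p = 5.52e-04). Mta3, a NuRD subunit, rose in the latter from 100.1 ± 15.8 to 176 ± 8.15 TPM (adjusted p = 0.00476), and Mbd2 and Sin3a fell (-0.60 and -0.50, adjusted p = 0.00914 and 0.0119).

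Of the class IIa partners and kinases, 19 of 22 could be tested. Prkd2, a protein kinase D that phosphorylates class IIa enzymes, was the one called in Pax5 R31Q/- cells. It had 265 ± 43.3 TPM in Pax5+/+, 193 ± 20.6 in Pax5+/-, 131 ± 16.4 in Pax5 R31Q/- and 37.6 ± 1.66 in Pax5 fl/fl Vav-Cre cells, the same order as Hdac5. The log2 differences of Prkd2 from Pax5+/+ were -1.01 in Pax5 R31Q/- (adjusted p = 0.0137 by limma) and -2.78 in Pax5 fl/fl Vav-Cre cells (adjusted p = 2.16e-05). In all, 5 of the 19 were lower and 4 higher in Pax5 fl/fl Vav-Cre cells, beside 19.7% and 16.2% of all genes, among the higher Camk2g, Camk1d and Runx3 (0.82, 0.76 and 1.001, adjusted p = 0.00130, 0.00435 and 0.00404). Of 11 histone acetyltransferases, which add the groups that the members remove, 4 were lower and 1 higher there, beside the same shares of all genes, with Naa60, Kat2b and Crebbp lower (-0.66, -1.06 and -0.66, adjusted p = 0.00335, 0.00343 and 0.0105) and Kat2a higher (0.53, adjusted p = 0.0171). In Pax5 R31Q/- cells 0 of the 11 were called, and these 0 and the single calls among the 30 and the 19 are near the 2.55% lower and 1.62% higher of all genes. Against Pax5 R31Q/- cells, Pax5 fl/fl Vav-Cre cells had 1 lower and 1 higher of the 8 deacetylases, 9 and 2 of the 30 subunits, 5 and 3 of the 19 partners and kinases, and 2 and 0 of the 11 acetyltransferases, beside 19.9% and 14.7% of all genes. The 4 lists had 0 calls in Pax5+/- against Pax5+/+ cells, beside 0.0223% of all genes lower and 0.0% higher, and 0 in Pax5 R31Q/- against Pax5+/- cells, beside 0.35% and 0.268%, so nothing about the lists is read from these counts.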

How the data were processed

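RNA-seq of 8 libraries and Pax5 ChIP-seq peaks of 2 libraries were taken as deposited. The authors aligned uniquely mapping reads to GRCm38/mm10 with STAR 2.4.2, counted them on RefSeq genes and deposited TPM values for 25579 genes. Peaks were called by the authors with MACS on Bowtie2 2.3.5.1 alignments and reads down-sampled where needed, which is not stated for these lists. The deposited peak files hold starts, ends and a score of 0 throughout, so no heights. The 10 members and the gene lists were chosen with earlier results of these data known. Named genes are the members, their neighbours where a member changed, up to 4 called genes per list and comparison, and the 5 nearest profiles of Hdac11 and Hdac5.

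limma 3.58.1 in R 4.3.3 was run on log2(TPM + 1) over genes with at least 1 TPM in a library, 13436 in all, with 1 fit of 4 genotypes, eBayes with a trend and Benjamini-Hochberg adjustment. The study's test on read counts was not run. The libraries of a genotype are called first and second only to name them. Whole reads could be recovered from the TPM steps of 18206 of 18206 genes above 0 in at least 2 libraries (relative tolerance 1e-07), with 21625407 to 34488454 reads per library, and served limma-voom as an alternative. The script was tested on simulated data. 1 marker gene of the pro-B list is not reported here. Shared peaks overlap by at least 1 bp, and start-site peaks have their midpoint within 1 kb of a RefSeq start (GRCm38.p6). Peaks, windows and sequences were handled in Python 3.11.15 with pysam 0.24.0. Alternatives were 2 other pseudocounts, 2 filters, the 2 genotypes alone, 2 other scalings, no trend, each library left out, and other widths, flanks, overlaps and start-site windows.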

Additional observations from a re-analysis of the deposited data

How the results depend on the processing

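Of the 6 calls of members, the 2 of Hdac5 and that of Hdac8 against Pax5+/+ held in 17 of 17 alternatives. Those of Hdac7 held in 6, Hdac6 in 7 and Hdac8 against Pax5 R31Q/- in 14. No member's called direction reversed, and Hdac11 kept the sign of its difference in all 5 comparisons under every alternative, from -4.13 to -2.71 for Pax5 R31Q/- against Pax5+/+. Between Pax5 R31Q/- and Pax5+/+, limma-voom on recovered reads called 1 member in place of 0, beside 827 genes in place of 560 over the whole table, and leaving out 1 library gave 0 to 2, beside 0.701% to 6.70% of all genes. For Pax5 fl/fl Vav-Cre against Pax5 R31Q/-, a fit of those genotypes alone called 1 in place of 3, beside 21.1% in place of 34.6% of all genes, and leaving out 1 library gave 1 to 3, beside 14.9% to 49.0%. The number of calls over all genes thus moved too, and the cause was not tested. In Pax5+/- against Pax5+/+ cells, 3 genes of the whole table were called lower and 0 higher, but 7 and 2 with median-ratio scaling. Over all genes, fits of the 2 genotypes alone called 2329 in place of 4829 for Pax5 fl/fl Vav-Cre against Pax5+/+. A flank of 50 kb gave 59 wild-type and 40 R31Q/- peaks in place of 37 and 22. Among peaks at least 300 bp wide 21 of 27 wild-type peaks at the members, 77.8%, met an R31Q/- peak, beside 44.2% of all such wild-type peaks. A start-site window of 0.2 kb gave 1 gene in place of 0 that lost its peaks, beside 3.2% of genes.

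No paired analysis was possible because the labels carry no replicate numbers. With 2 libraries per genotype small changes are missed, and the 87 and 88 reads of Hdac11 in Pax5 R31Q/- libraries limit its ratios. ChIP-seq has 1 library per genotype, in cultured cells, so peaks and RNA come from different cells.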
